A study of Mus musculus with 661 samples.

Results

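Glycolysis and hypoxia genes are described here across the stromal and endothelial cells of mouse bone and bone marrow. The set was chosen by name and function. It holds the glucose carriers, the enzymes that turn glucose into lactate, the lactate carriers, the kinases that close the entry of pyruvate into mitochondria, the hypoxia-inducible factors with their oxygen sensors, and Bnip3. It has 32 members of the 45808 gene symbols in the series.

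The study sorted single stromal cells from wild-type C57BL/6 mice into plates and sequenced full-length cDNA from each cell. Young mice were 6 to 12 weeks old, and old mice were at least 18 months and usually 24 months old. Of the 661 cells, 336 came from young and 325 from old mice, and 354 were mesenchymal and 307 endothelial. The labels give no transgene or treatment. MSC-S were mesenchymal cells of the endosteum sorted as Sca-1+, with 59 young and 59 old cells. Endosteal osteoprogenitors without Sca-1 were split by PDGFRα into mOPr, which carry it (26 young and 26 old cells), and OPr, which lack it (44 young and 29 old cells). MSC-L were LepR+ mesenchymal cells of the central marrow, with 53 young and 58 old cells. AEC were endosteal endothelial cells high in CD31 and Sca-1 (84 young and 82 old), and SEC were central marrow endothelial cells low in both (70 young and 71 old). Each cell held between 58034 and 1503374 counts over all genes, mitochondrial genes included, with a median of 425611. The medians of the 12 groups ran from 306315 in old SEC to 781968 in old OPr.

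The study took cells from several mice of each age, but the labels name no mouse. Each age of a population was therefore treated as 1 sample, and no comparison could be tested. A level is given as counts per 1000000 nuclear counts (CPM) after the counts of all cells of a group were summed, and a ratio between groups is given with its exact 95% interval in parentheses. These intervals cover counting error only, because PCR reads without molecular identifiers are not independent molecules and mice differ. A member is counted as higher or lower when the groups differed by at least 2-fold. It is described in detail when that difference also had the same direction in each range of library numbers (a set of consecutively numbered libraries) with 5 or more cells on both sides, and without the highest cell of each group.

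Glycolysis splits glucose into pyruvate in the cytosol, and lactate dehydrogenase turns pyruvate into lactate when little of it enters mitochondria. In low oxygen, prolyl hydroxylases no longer mark the hypoxia-inducible factor (HIF) alpha subunits for degradation, and the stable factors pair with Arnt and raise transcription of glucose carriers, glycolytic enzymes and pyruvate dehydrogenase kinases. Bone marrow is a tissue of low oxygen tension, its vessels differ in permeability and oxygen supply between the endosteum and the central sinusoids, and skeletal cells are known to rely on glycolysis.

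The labels were checked against marker lists. The 8 MSC-L markers summed to 66878 CPM in young and 52866 in old MSC-L, led by Cxcl12, against 684 and 1338 in MSC-S. The 8 MSC-S markers, led by Gsn, reached 25452 and 24012 CPM in MSC-S and 540.5 and 190.5 in MSC-L. Endothelial markers summed to between 8824 and 10348 CPM in AEC and SEC and to at most 121 CPM in the mesenchymal groups. AEC markers were at 6311 and 7620.4 CPM in young and old AEC, and SEC markers were at 20428 and 15297 CPM in young and old SEC. These lists followed the labels. The 10 osteoprogenitor markers did not: they summed to 11643 and 7582 CPM in young and old MSC-L, 11403 and 13552 in mOPr and only 5244 and 3914 in OPr.

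The osteoprogenitor groups were less uniform, and their cells differed in kind between ages. In young OPr, 8 chondrogenic markers summed to 55938 CPM, led by Col2a1 at 23589 CPM, against 10983 CPM in old OPr. The MSC-L markers differed the other way, with 6607 CPM in young and 26476 CPM in old OPr, and 1245 CPM in young and 23448 CPM in old mOPr. By the published cluster labels, 14 of 26 old mOPr and 10 of 29 old OPr lay in the MSC-L-like clusters M1 and M2, against 2 young mOPr and 3 young OPr. In addition, 8 of the 29 old OPr carried 12 to 15 of 15 hematopoietic markers at 10 CPM or more, although the sort took cells without CD45 and Ter-119. Those markers summed to 7716 CPM in old and 182 CPM in young OPr, with Srgn the most abundant at 1861 CPM and none of the 15 at 0 in old OPr. Neutrophil markers reached 8849.7 CPM in old and 5.05 CPM in young OPr. Besides these, 1 old SEC carried 14 and 1 old MSC-L carried 7 of the hematopoietic markers. At least 7 of 12 mesenchymal markers were found in 2 young and 2 old AEC and in 12 young and 6 old SEC. Values of old OPr include the 8 cells unless stated, and ratios that rest on them are also given without them. Immediate early genes, which cells switch on within minutes of a stimulus, summed to 3393 and 2843 CPM in young and old MSC-L and to between 14312 and 31308 CPM in the other groups, and their part in the differences from MSC-L was not tested.

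All 32 members had counts, and which of them led depended on the population. Between genes, levels are compared per kb of exon length. Epas1, which encodes the alpha subunit of HIF2, had the highest CPM per kb of all members in MSC-L, AEC, SEC and old mOPr, up to 742 CPM per kb in old AEC. Aldoa led in young and old MSC-S and old OPr, with 132 CPM per kb in young MSC-S, and Ldha led in young mOPr and young OPr, with 167 CPM per kb in young mOPr. Aldoa, Ldha and Epas1 were thus the members at the top of the scale, and Aldoc was at or under 4.47 CPM in every group. Gapdh, Pgk1 and Pgam1 encode abundant enzymes, but held 4926, 2506 and 1124 counts over all cells. Of the 50-base stretches of their exons, 25.1%, 53.9% and 36.2% also occur in other annotated genes, and whether this sharing lowered their counts was not tested. The same share was 47.2% for Bnip3, 26% for Eno1, 25.8% for Pkm and 21% for Ldhb, and Pkm nevertheless held 88468 counts.

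**Figure D1:**
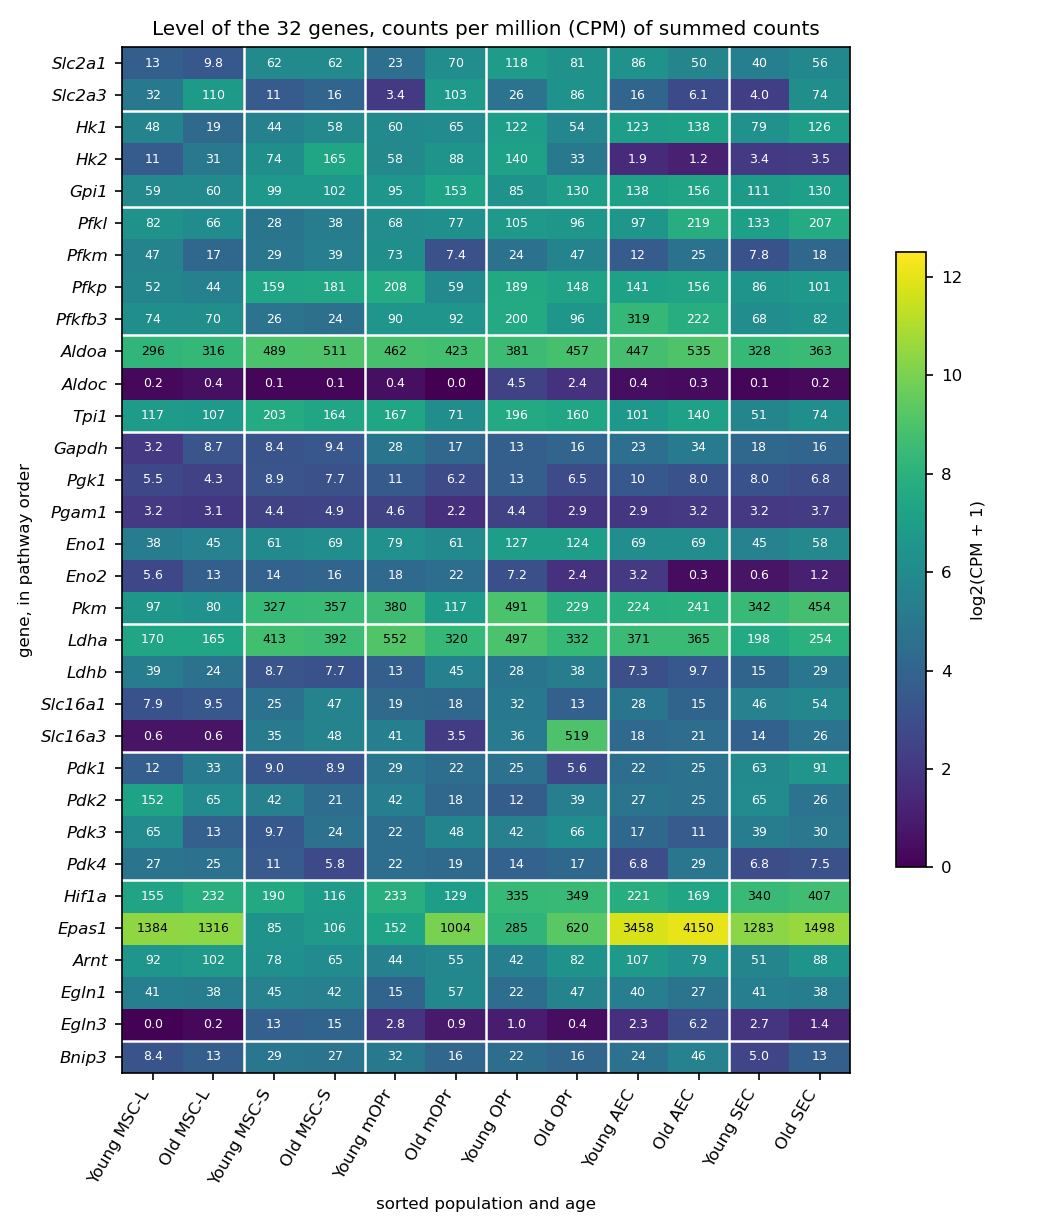
Level of each of the 32 members (vertical axis) in the 12 groups (horizontal axis), as CPM of summed counts on the color scale, 1 sample a group. Epas1 runs from 85.5 CPM in young MSC-S to 4149.7 CPM in old AEC, and Hk2 lies at or under 3.52 CPM in the endothelial groups.

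Among the factors and sensors, Epas1 differed widely between populations. It stood at 1384 CPM in young and 1316 in old MSC-L, 85.5 and 106 in MSC-S, 152 and 1004 in mOPr, 285 and 620.3 in OPr, 3458 and 4149.7 in AEC, and 1283 and 1498 in SEC. The AEC were highest and the MSC-S lowest, and the marrow populations MSC-L and SEC lay close to each other in between. Among young AEC, MSC-L, SEC and MSC-S, the median cell was also highest in AEC and lowest in MSC-S. Young OPr did not follow their sum, because their middle cells held only 5.64 and 5.67 CPM. The lowest, median and highest cell held 1.9, 1177 and 3432 CPM in young MSC-L, and 0, 5.21 and 480.1 CPM in young MSC-S. In young AEC they held 402, 2882 and 11052 CPM, and in young SEC 67, 1247 and 3229.5 CPM. The ranges of cells overlapped between all of these groups, but 98.1% of young MSC-L and 47.5% of young MSC-S reached 10 CPM. Epas1 was also a guide gene of the published clusters in both compartments, so its spread over clusters is part of how they were drawn.

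Hif1a, the alpha subunit of HIF1, varied far less. It was at 155 CPM in young and 232 in old MSC-L, 190.2 and 116 in MSC-S, 233 and 129 in mOPr, 335 and 349 in OPr, 221 and 169 in AEC, and 339.6 and 407 in SEC. Its highest level was in old SEC and its lowest in old MSC-S. Per kb, Epas1 made up 90.4% of the Epas1 and Hif1a sum in young MSC-L and 94.3% in young AEC, and 79.9% in young SEC. In young MSC-S the share was 32.2%, in young mOPr 40.8% and in young OPr 47.3%. Endothelial cells and MSC-L thus held mainly the Epas1 transcript, and young endosteal mesenchymal cells held more Hif1a than Epas1. Arnt, the partner of both alpha subunits, lay between 41.8 CPM in young OPr and 107 CPM in young AEC. Egln1, the main prolyl hydroxylase that senses oxygen, ran from 15.4 CPM in young mOPr to 56.8 CPM in old mOPr. Egln3, a hypoxia-induced hydroxylase, reached 13.4 and 15.3 CPM in young and old MSC-S, but 1 cell held 94.4% of the counts in the young group and 1 cell held 70% in the old group.

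**Figure D2:**
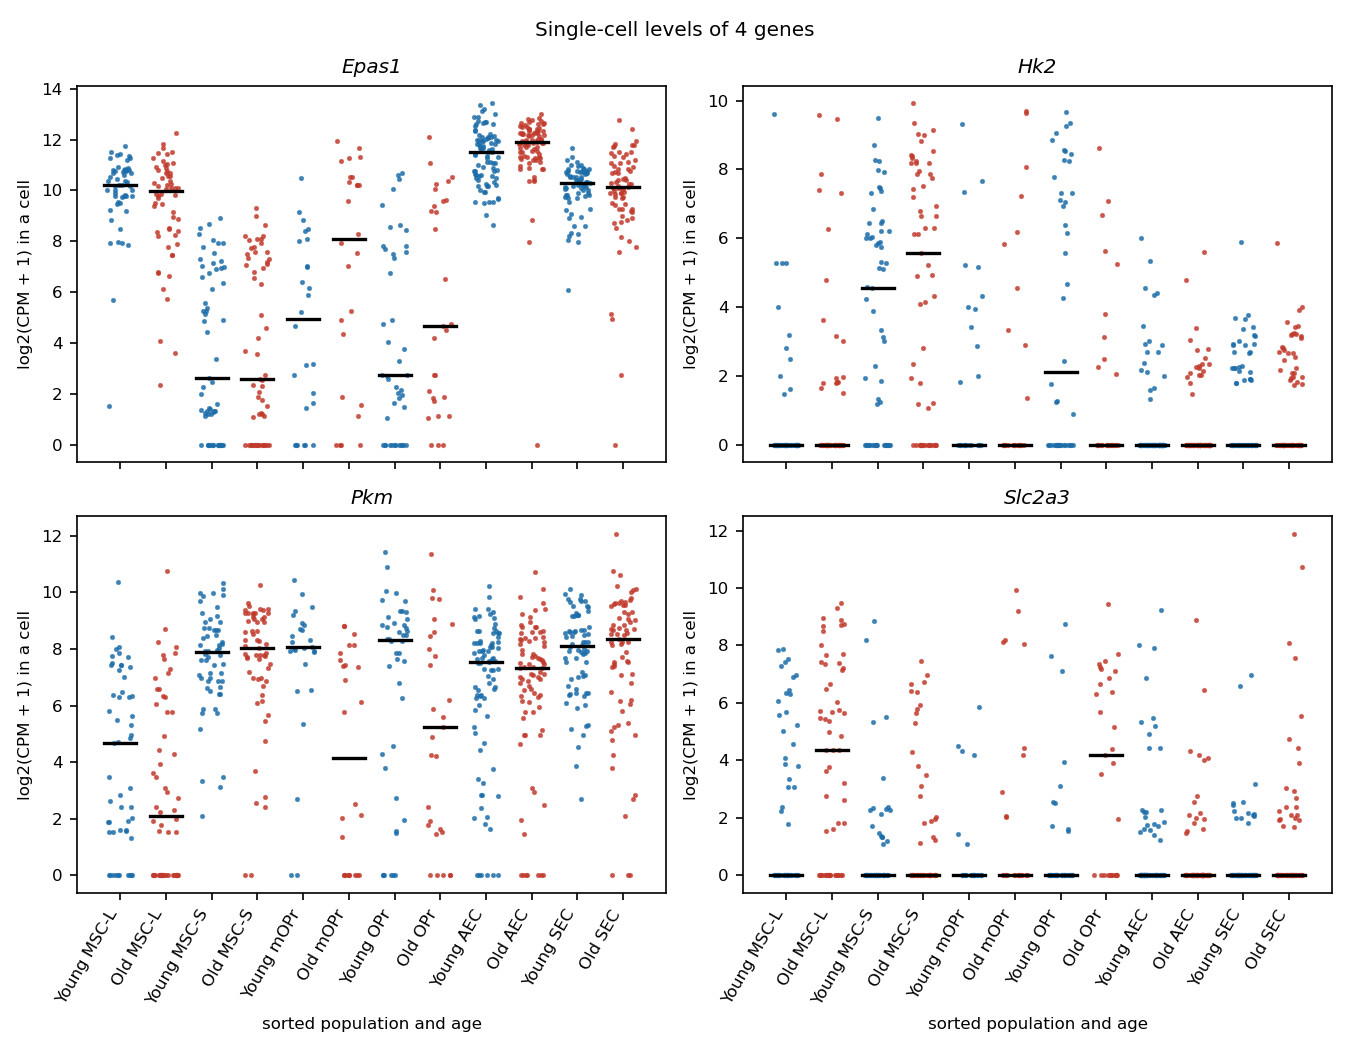
Level of Epas1, Hk2, Pkm and Slc2a3 in each cell (vertical axis, log2 of CPM plus 1) by group (horizontal axis), young in blue and old in red, with black bars at group medians. The median cell held 2882 CPM of Epas1 in young AEC and 5.21 CPM in young MSC-S, and 24.3 CPM of Pkm in young MSC-L and 235 CPM in young MSC-S.

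Glucose enters through carriers, and 2 of them are members. Slc2a1, which encodes GLUT1, was at 13 CPM in young and 9.8 in old MSC-L, 62.1 and 61.5 in MSC-S, 22.7 and 69.9 in mOPr, 118 and 81.4 in OPr, 85.6 and 50.3 in AEC, and 40.5 and 56 in SEC. It was lowest in MSC-L at both ages and highest in young OPr. Slc2a3, the high-affinity carrier GLUT3, stood at 32.3 CPM in young and 110.2 in old MSC-L, 11.1 and 16.2 in MSC-S, 3.36 and 103 in mOPr, 25.7 and 85.8 in OPr, 16 and 6.08 in AEC, and 3.97 and 73.6 in SEC. In single old MSC-L the lowest, median and highest cell held 0, 19.7 and 716 CPM of Slc2a3. Per kb, Slc2a3 made up 54.6% of these 2 carriers in young and 84.5% in old MSC-L, against 7.97% and 11.3% in MSC-S. In none of the other groups did Slc2a3 exceed Slc2a1 per kb. Slc2a8, a carrier outside the 32 members, was at 17.2 CPM per kb in young MSC-L, above the 3.7 of Slc2a1 and the 4.46 of Slc2a3, so these shares do not describe all carriers.

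Hexokinases trap glucose in the cell as glucose phosphate. Hk2, the inducible isozyme, was at 11.4 CPM in young and 30.6 in old MSC-L, 74.1 and 165 in MSC-S, 57.8 and 88 in mOPr, 140.4 and 32.6 in OPr, 1.92 and 1.23 in AEC, and 3.37 and 3.52 in SEC. It was highest in endosteal mesenchymal cells and close to 0 in endothelium, where 7.14% of young AEC and 5.71% of young SEC reached 10 CPM against 54.2% of young MSC-S. The lowest, median and highest cell held 0, 22.7 and 713 CPM in young MSC-S and 0, 46.6 and 973 CPM in old MSC-S. In young AEC the median cell was at 0 and the highest at 62.9 CPM, within the range of MSC-S. Hk1, the broadly expressed isozyme, ran from 19.2 CPM in old MSC-L to 138 CPM in old AEC. Per kb, Hk1 made up 97.8% of the Hk1 and Hk2 sum in young AEC and 94.3% in young SEC, and 29.6% in young MSC-S. Of those 2 isozymes, endothelial cells therefore carried mostly the Hk1 transcript and MSC-S mostly the Hk2 transcript. Hk3, an isozyme outside the 32 members, made up 16.7% of the 3 in young SEC. In old SEC its share was 30.6%, with 94.8% of its counts in 1 cell, and it stood at 1.33 CPM without the hematopoietic-marker cell. Gpi1, which turns glucose phosphate into fructose phosphate, lay between 59 and 156 CPM in all groups.

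Phosphofructokinase commits the sugar to glycolysis, and its subunits were mixed differently by population. Per kb, the liver-type subunit Pfkl made up 69.3% of the 3 subunits in young SEC and 16.6% in young MSC-S. The platelet-type subunit Pfkp made up 47.9% in young MSC-S and 12.9% in young MSC-L. The muscle-type subunit Pfkm was at most 73 CPM, in young mOPr, and 1 cell held 96.8% of its counts in old mOPr. Pfkfb3, which makes the activator of phosphofructokinase and drives glycolysis in growing vessels, was at 73.8 CPM in young and 70.3 in old MSC-L, 25.7 and 23.8 in MSC-S, 89.8 and 91.6 in mOPr, 199.9 and 95.6 in OPr, 319 and 222 in AEC, and 67.8 and 82.2 in SEC. Young AEC held most of it and MSC-S least. In old AEC 1 cell held 44.2% of the counts, and without it the group stood at 126 CPM, below young OPr. In young AEC the lowest, median and highest cell held 0, 91.8 and 2025 CPM of Pfkfb3.

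Further down the pathway, Aldoa, the main aldolase, varied least, from 296 CPM in young MSC-L to 535 CPM in old AEC. Tpi1, which interconverts the triose phosphates, ran from 51.1 CPM in young SEC to 203 CPM in young MSC-S. Among the enzymes that yield ATP, Pkm, the pyruvate kinase, was at 97.3 CPM in young and 79.8 in old MSC-L, 327 and 357 in MSC-S, 380.4 and 117 in mOPr, 491 and 229 in OPr, 224 and 241 in AEC, and 342 and 454 in SEC. MSC-L were lowest at both ages, and the median cell was at 24.3 CPM in young MSC-L and 235 CPM in young MSC-S. Eno1, the common enolase, ran from 38.5 CPM in young MSC-L to 127 CPM in young OPr, and Eno2, the neuronal form, stayed at or under 22.3 CPM. Gapdh lay between 3.2 and 34.1 CPM, Pgk1 between 4.26 and 12.8 CPM, and Pgam1 between 2.16 and 4.93 CPM.

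At the end of the pathway, Ldha, which favors lactate, was at 170.3 CPM in young and 165 in old MSC-L, 413 and 391.9 in MSC-S, 552 and 319.8 in mOPr, 497 and 332 in OPr, 371 and 365 in AEC, and 197.6 and 254 in SEC. Young endosteal mesenchymal cells were highest and MSC-L lowest. Ldhb, the form that favors pyruvate, made up 32.3% of both dehydrogenases per kb in young and 23.4% in old MSC-L, against 4.27% and 3.99% in MSC-S. Slc16a3, the lactate exporter MCT4, stood at 0.57 CPM in young and 0.564 in old MSC-L, 34.9 and 47.9 in MSC-S, 41.5 and 3.52 in mOPr, 35.8 and 519 in OPr, 18.4 and 21.1 in AEC, and 13.7 and 25.8 in SEC. It was nearly absent from MSC-L, where 1 of 53 young cells and 1 of 58 old cells reached 10 CPM, and its peak in old OPr came from the blood-like cells described with the ages. Slc16a1, the carrier MCT1, ran from 7.94 CPM in young MSC-L to 53.9 CPM in old SEC.

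Pyruvate dehydrogenase kinases shut the enzyme that passes pyruvate to the mitochondrial cycle. Per kb, Pdk2 led the 4 kinases in young MSC-L, MSC-S, mOPr, AEC and SEC, with 58.2%, 62.5%, 41.6%, 42.2% and 44.9%, and in old MSC-L with 55.2%. It was at 152 CPM in young and 65.1 CPM in old MSC-L. Pdk3 led in young and old OPr, with 60.4% and 58.9%, and in old mOPr and old MSC-S, with 57.5% and 49.7%. Pdk4 led in old AEC with 35%, and in old SEC Pdk3 and Pdk1 were close, with 34.9% and 34.4%. The lead of Pdk4 rested on few cells, because 2 old AEC held 84.1% of its counts. Without them Pdk4 was at 4.81 CPM in old AEC. Pdk1, a classical HIF target, was highest in SEC, at 63 and 91.1 CPM, and at most 32.9 CPM in all other groups. Pdk4, which is induced by fasting, did not exceed 29.1 CPM. Bnip3, a hypoxia target in mitophagy, ran from 5.02 CPM in young SEC to 45.7 CPM in old AEC, and 22.3% of its exon bases overlap another annotated gene.

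The comparison of MSC-L with MSC-S asks how mesenchymal cells of the central marrow differ from those at the bone surface. In young mice the marrow cells held less of the transcripts for making and exporting lactate. Slc16a3 was 61.2-fold lower (35.6 to 115), at 0.57 against 34.9 CPM. This fold is uncertain, because 1 cell held 92.3% of the 13 counts in young MSC-L, and without the highest cell of each group the levels were 0.0448 and 23.6 CPM. Hk2 was 6.5-fold lower (5.72 to 7.41) and Slc2a1 4.79-fold lower (4.24 to 5.42). In young MSC-L 1 cell held 75.4% of the Hk2 counts, and without the highest cell of each group Hk2 was at 2.84 against 58.5 CPM. Pkm was 3.36-fold lower (3.21 to 3.52), with 97.3 against 327 CPM. Ldha was 2.42-fold lower (2.34 to 2.51), Pfkp 3.07-fold lower, Eno2 2.57-fold lower and Bnip3 3.43-fold lower. Apart from Bnip3, these members belong to steps from glucose uptake to lactate export.

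Other members were higher in MSC-L. Epas1 was 16.2-fold higher (15.6 to 16.8), at 1384 against 85.5 CPM. The kinases Pdk3 and Pdk2 were 6.66-fold higher (5.91 to 7.52) and 3.58-fold higher (3.36 to 3.8). Ldhb was 4.42-fold higher (3.87 to 5.05), at 38.6 against 8.74 CPM. Pfkl was 2.97-fold higher, Slc2a3 2.91-fold higher and Pfkfb3 2.87-fold higher. In young MSC-S 1 cell held 64.8% of the Slc2a3 counts, and without the highest cell of each group Slc2a3 was at 28.2 against 3.97 CPM. For the carriers, the phosphofructokinases and the lactate dehydrogenases, isozymes of the same step thus lay on opposite sides.

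Of the 30 members that entered the comparison, 8 were at least 2-fold higher in MSC-L, where 28.8% of all genes were, and 10 were at least 2-fold lower, where 16.8% of all genes were. Of these 18, 15 kept their direction in both library-number ranges and without the highest cells. The members had a median log2 ratio of -0.49, and all 13645 genes had a median of 0.32. That shift of all genes depends on the scaling. With median-of-ratios scaling the baseline moved by 0.34, the higher side's share of genes past 2-fold went from 63.1% to 49.99%, and the member counts became 7 higher and 13 lower. Old mice, measured in other cells, had a median log2 ratio of -0.62 over the members. Epas1 was 12.4-fold higher (12 to 12.8), Slc16a3 84.9-fold lower (47.3 to 170.4) and Pkm 4.47-fold lower (4.24 to 4.71) in old MSC-L. Without the highest cell of each group Pkm was at 47.2 CPM in old MSC-L against 345 CPM in old MSC-S. Pdk3 went the other way in old mice, where it was 1.78-fold lower than in MSC-S, and Hk1 was 3.03-fold lower. For old mice the same scaling took the higher side's share of genes past 2-fold from 66.9% to 52.4%.

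**Figure D3:**
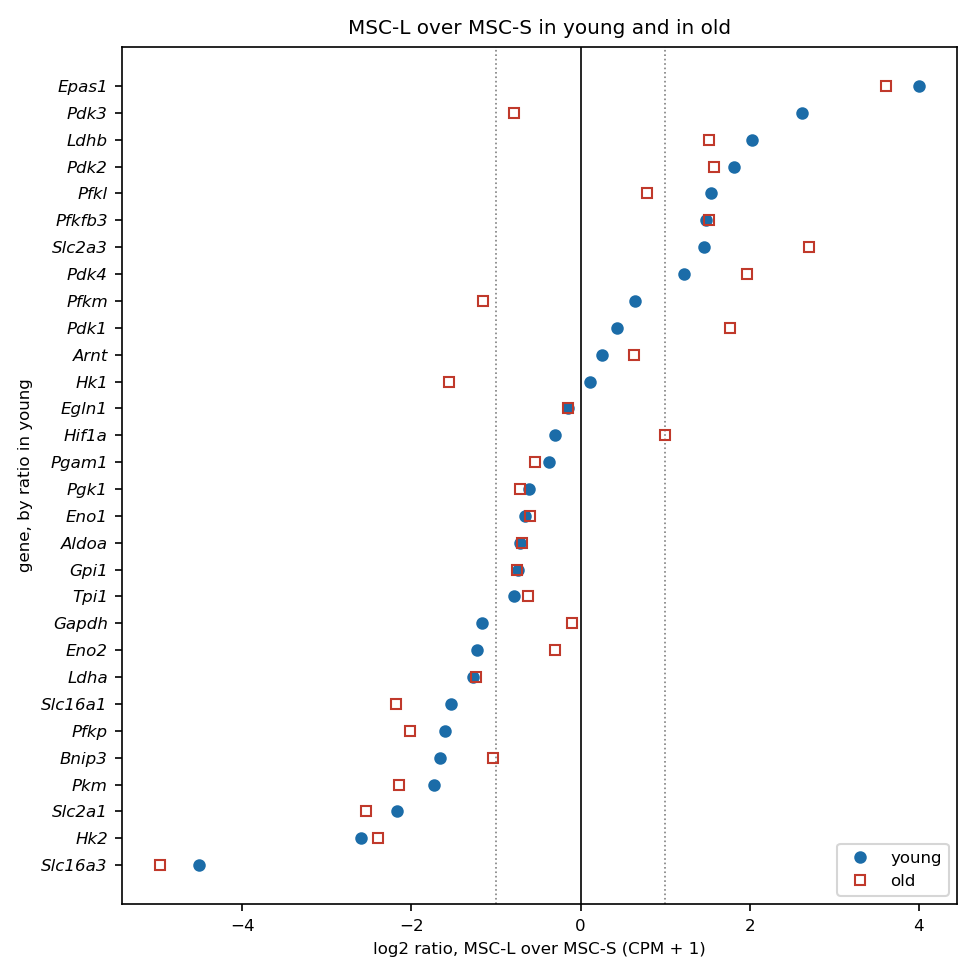
Log2 ratio of MSC-L over MSC-S (horizontal axis) for each member (vertical axis), with young in blue circles, old in red open squares and dotted lines at a 2-fold difference. Epas1 lies at 4.00 in young and 3.62 in old mice, and Slc16a3 at -4.51 and -4.97.

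The promoters of members that moved together were searched for the core letters that HIF is known to bind, ACGTG and GCGTG, on both strands (CACGT and CACGC on the strand shown). The 250 bases before the start came from RefSeq for build GRCm38.p6, and 30 of the 32 members were matched. Of all 32851 promoters of that length, 16.6% held ACGTG, 28.2% held GCGTG and 38.6% held either. At least 1 promoter held either motif in 27 of the 30 matched members, some of which have several promoters, or in 35 of 44 member promoters. It did so for 7 of the 8 members that were lower in young MSC-L, and for 5 of 5 matched members among the 7 that were higher. A match describes letters and shows no binding. The promoters of 4 members lower in MSC-L are shown 5′ to 3′, with the motif letters in capitals: Slc16a3 at chr11:120948817-120949066 on the plus strand, Hk2 at chr6:82774455-82774704 on the minus strand, Slc2a1 at chr4:119108495-119108744 on the plus strand and Bnip3 at chr7:138909507-138909756 on the minus strand.
Slc16a3: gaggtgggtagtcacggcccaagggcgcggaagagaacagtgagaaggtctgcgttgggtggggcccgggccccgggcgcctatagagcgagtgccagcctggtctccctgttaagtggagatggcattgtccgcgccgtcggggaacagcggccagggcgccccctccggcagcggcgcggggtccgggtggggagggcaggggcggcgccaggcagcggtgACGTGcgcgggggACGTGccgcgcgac
Hk2: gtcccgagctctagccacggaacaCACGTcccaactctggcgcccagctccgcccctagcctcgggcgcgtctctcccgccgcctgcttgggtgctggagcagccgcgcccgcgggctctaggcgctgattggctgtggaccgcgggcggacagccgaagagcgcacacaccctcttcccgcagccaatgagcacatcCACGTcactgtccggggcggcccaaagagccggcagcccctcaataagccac
Slc2a1: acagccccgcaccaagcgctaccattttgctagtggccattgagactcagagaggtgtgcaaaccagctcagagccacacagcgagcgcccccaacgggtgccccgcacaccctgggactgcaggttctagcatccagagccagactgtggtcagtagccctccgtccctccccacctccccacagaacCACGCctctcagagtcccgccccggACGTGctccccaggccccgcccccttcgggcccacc
Bnip3: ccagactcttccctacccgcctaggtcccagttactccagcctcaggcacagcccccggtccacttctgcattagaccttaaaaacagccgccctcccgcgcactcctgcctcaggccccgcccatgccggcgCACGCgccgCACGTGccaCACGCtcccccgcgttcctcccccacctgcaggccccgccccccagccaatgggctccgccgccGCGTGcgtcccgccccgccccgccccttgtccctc

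OPr and MSC-S both lie at the endosteum and differ in Sca-1, and comparing them asks how osteoprogenitors differ from the cells held to be upstream of them. Young OPr were higher in members at several steps. Pfkfb3 was 7.77-fold higher (7.24 to 8.35), at 199.9 against 25.7 CPM. Pdk3 was 4.38-fold higher (3.88 to 4.96), Pfkl 3.82-fold higher (3.55 to 4.11) and Epas1 3.34-fold higher (3.2 to 3.48). The Epas1 ratio rested on few cells. The median cell of young MSC-S held 5.21 CPM of Epas1, and the middle cells of young OPr held 5.64 and 5.67 CPM. The highest cells of young OPr held 1076 to 1668 CPM and lay in M1, M5 and M15. Ldhb was 3.16-fold, Hk1 2.74-fold, Pdk1 2.71-fold, Slc2a3 2.32-fold and Eno1 2.07-fold higher. Pdk2 and Egln1 were 3.64-fold lower and 2.08-fold lower. Within young OPr the chondrocyte-like cluster M3 stood apart: 15 of its 16 cells were young OPr. Those cells held 315 CPM of Hk2, 218 of Slc2a1, 787 of Ldha and 387 of Pfkfb3. The other young OPr held 50.4, 67, 347 and 103 CPM. Epas1 ran the opposite way, with 19.3 CPM in M3 and 423 CPM outside it. Over all members, 10 of 32 were at least 2-fold higher in young OPr (all genes 19.3%) and 3 lower (all genes 17%), and 11 of the 13 met the further conditions. The median log2 ratio was 0.42 for the members and 0.00 for all genes. Old OPr over old MSC-S had a member median of 0.24 with all cells and -0.20 without the 8 blood-like cells. Epas1 was 5.83-fold higher, Pfkfb3 4.01-fold higher and Hk2 5.06-fold lower with them, and 7.78-fold higher, 4.2-fold higher and 4.88-fold lower without them. When only the highest cell of each group was left out, Hk2 was at 16.4 CPM in old OPr against 147 CPM in old MSC-S.

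PDGFRα divides the osteoprogenitors, and young mOPr had less Slc2a1, Slc2a3, Hk1 and Hk2 than young OPr. Pfkm went the other way, at 21.9 against 7.25 CPM per kb, but did not meet the further conditions. Slc2a3 was 7.66-fold lower (5.74 to 10.5), at 3.36 against 25.7 CPM, but 1 cell held 66.1% of the Slc2a3 counts in young OPr. Slc2a1 was 5.21-fold lower (4.66 to 5.85), Hk2 2.43-fold lower (2.26 to 2.62) and Hk1 2.04-fold lower (1.89 to 2.2). Without the highest cell of each group Hk2 was at 20.9 against 119 CPM. Pfkfb3 was 2.23-fold lower and Ldhb 2.18-fold lower. Pdk2 was 3.57-fold higher (3.12 to 4.09), Eno2 2.53-fold and Gapdh 2.19-fold higher in mOPr. In young OPr 2 cells held 92.5% of the Eno2 counts, and without the highest cell of each group Eno2 was at 10.9 against 1.18 CPM. The Hk2 of young OPr lay mostly in cluster M3, and the young OPr outside M3 held 50.4 CPM, below the 57.8 CPM of young mOPr. Of 31 members, 4 were at least 2-fold higher in mOPr (all genes 17.5%) and 7 lower (all genes 20.3%), with a median log2 ratio of -0.23 beside 0.01 for all genes. The chondrogenic markers also differed, at 14729.9 CPM in young mOPr and 55938 CPM in young OPr, and their part in the other differences was not tested. In old mice Slc16a3 was 147-fold lower (109.6 to 203) and Hif1a 2.71-fold lower in mOPr with all cells. Without the 8 blood-like cells of old OPr they were 6.32-fold lower (4.61 to 8.86) and 1.4-fold lower (1.31 to 1.48), and Hk2 was 2.7-fold higher with those cells and 2.61-fold higher without them.

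Set beside MSC-S, the mesenchymal cells of the same endosteum, AEC show how vessel cells and stromal cells of that site differ. Only library-number ranges 1 and 2 hold both. Epas1 in young AEC was 43.3-fold higher (41.7 to 44.9), at 3700.3 against 85.5 CPM, and Pfkfb3 was 12.2-fold higher (11.4 to 13.1), at 314 against 25.7 CPM. Hk2 was 48.9-fold lower (36.2 to 67.8), at 1.51 against 74.1 CPM, while Hk1 was 2.5-fold higher (2.35 to 2.66). Pfkl was 3.74-fold, Pdk1 2.66-fold and Gapdh 2.57-fold higher. Ldha and Aldoa were alike in level, at 393 and 413 CPM and at 467 and 489 CPM, but Tpi1 was at 101 against 203 CPM, with a log2 ratio of -0.997, just short of the 2-fold line. Of 31 members, 7 were at least 2-fold higher in AEC (all genes 26.8%) and 4 lower (all genes 17.9%), and 7 of the 11 met the further conditions. The median log2 ratio was 0.04 for the members and 0.26 for all genes. Median-of-ratios scaling moved the baseline by 0.28, took the higher side's share of genes past 2-fold from 59.9% to 49.4% and gave 6 members higher and 7 lower. In old mice Epas1 was 41-fold higher (39.8 to 42.3), Pfkfb3 10.1-fold higher and Hk2 391.7-fold lower (224 to 758), and there that scaling took the higher side's share of genes past 2-fold from 59.6% to 48.1%. The size of the old Hk2 fold is uncertain, because few Hk2 counts lay in these AEC. Over all old AEC, range 3 included, Hk2 was at 0.207 CPM per kb, against 27.6 in old MSC-S.

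AEC and SEC are the endothelium of arterioles near bone and of marrow sinusoids, and they could be compared only in library-number range 3, with 24 young and 23 old AEC. Young AEC held more of Pfkfb3 and of both glucose carriers. Pfkfb3 was 5.03-fold higher (4.7 to 5.37), at 341 against 67.8 CPM. Arnt was 3.76-fold higher (3.46 to 4.08) and Slc2a1 2.92-fold higher (2.65 to 3.22). Slc2a3 was 8.3-fold higher (6.44 to 10.8), but without the highest cell of each group its level went from 32.9 to 7.91 CPM in AEC and from 3.97 to 2.28 CPM in SEC. Bnip3 and Hk1 were 2.25-fold and 2.21-fold higher, but under 2-fold without the highest cells, with log2 ratios of 0.68 and 0.92. In range 3 SEC held more of the kinases that restrain mitochondrial use of pyruvate. Pdk3 was 35.9-fold lower (17.4 to 89.7) in AEC, at 1.08 against 38.9 CPM. Pdk1 was 4.63-fold lower (3.73 to 5.81) and Hif1a 2.53-fold lower (2.36 to 2.72). Pdk4 rested on 1 count in AEC, under the floor of 3 counts, at 0.155 against 6.79 CPM. Ldhb had no count in AEC and 15.5 CPM in SEC, at least 33.3-fold lower with a floor of 3 counts over the group. These levels hold for the range 3 cells alone, because all 84 young AEC held 17.3 CPM of Pdk3, 6.83 of Pdk4 and 7.32 of Ldhb. Epas1 was 1.87-fold higher (1.83 to 1.9) in AEC, under the 2-fold line, at 2394 against 1283 CPM.

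Of 27 members, 6 were at least 2-fold higher in young AEC (all genes 17.3%) and 5 lower (all genes 24.9%), and each of these 11 kept its direction without the highest cell of each group. The median log2 ratio was 0.15 for the members and -0.10 for all genes. Not every direction held in old mice. Of the 2 glucose carriers, Slc2a1 was higher and Slc2a3 at least 2-fold lower in old AEC than in old SEC. The Slc2a3 ratio rested on few cells, because 2 old SEC held 94% of its counts. Without them old SEC stood at 4.58 CPM of Slc2a3. Bnip3 lay near 0, with a log2 ratio of -0.11. Arnt pointed the other way. It was 2.63-fold lower (2.28 to 3.05) in old AEC than in old SEC, while Pdk1 was 5.09-fold lower (4.21 to 6.2) and Epas1 2.12-fold higher (2.09 to 2.16). Median-of-ratios scaling moved the old baseline by -0.20, a change that leaves the directions of Arnt, Pdk1 and Epas1 as they are.

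With age, MSC-L differed in 9 members by at least 2-fold. Slc2a3 was 3.41-fold higher (3.14 to 3.71) in old than in young MSC-L, at 110.2 against 32.3 CPM, and 33 of 58 old cells against 19 of 53 young cells reached 10 CPM. Pdk3 was 4.81-fold lower (4.21 to 5.5) and Pdk2 2.33-fold lower (2.18 to 2.49), while Pdk1 was 2.63-fold higher (2.28 to 3.04). Without the highest cell of each group Pdk1 was at 17.9 against 9.31 CPM, with a log2 ratio of 0.87, under the 2-fold line. Hk1 was 2.52-fold lower (2.24 to 2.84) and Pfkm 2.7-fold lower (2.39 to 3.07). Gapdh was 2.72-fold and Eno2 2.29-fold higher. Without the highest cell of each group Eno2 was at 8.74 CPM in old against 2.47 CPM in young MSC-L. The most abundant members held their levels, with Epas1 at 1384 CPM in young and 1316 CPM in old cells, Aldoa at 296 and 316 CPM and Ldha at 170.3 and 165 CPM. Of the 29 members, 5 were at least 2-fold higher in old MSC-L (all genes 13.9%) and 4 lower (all genes 11.5%). Their median log2 ratio was -0.07, against 0.01 for all genes. By cluster identity (M1 and M2) 4 members were past 2-fold instead of 9, and of the 8 stable ratios only those of Slc2a3, Eno2 and Pdk2 stayed so. Hk2 was the member past 2-fold without a stable direction: its log2 ratio was -0.01 in range 1 and 3.11 in range 2.

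MSC-S had few members past 2-fold with age. Hk2 was 2.23-fold higher (2.13 to 2.33) in old MSC-S, at 165 against 74.1 CPM, and Pdk3 was 2.47-fold higher (2.18 to 2.81), at 24 against 9.69 CPM. Much of the Hk2 lay in cluster M9, whose 10 cells were all old MSC-S with 414 CPM of Hk2. The other old MSC-S held 97.1 CPM, nearer to the 74.1 CPM of young MSC-S. Those M9 cells had little of other members, with 26.9 CPM of Epas1, 0.239 of Slc16a3 and 1.55 of Pfkm against 128, 60.9 and 49.8 CPM in the other old MSC-S. Of 31 members, 2 were at least 2-fold higher in old MSC-S (all genes 8.65%) and 0 lower (all genes 11.1%). The members had a median log2 ratio of 0.13 and all genes -0.06. The low count did not hold in every setting, with 10 members past 2-fold in range 1 alone, 4 without the highest cells and 6 by cluster identity. Pkm, Ldha and Aldoa, the most abundant enzymes of the group, were at 327 and 357, 413 and 391.9, and 489 and 511 CPM in young and old cells.

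Old mOPr held more Epas1 and less of several glycolytic enzymes than young mOPr. Epas1 was 6.61-fold higher (6.32 to 6.92), at 1004 against 152 CPM. Slc2a3 was 30.6-fold higher (23 to 41.5), with 48.6% of the old counts in 1 cell, without which old mOPr held 55.6 CPM. Egln1 was 3.68-fold higher (3.16 to 4.3) and Ldhb 3.51-fold higher (2.97 to 4.17). On the lower side, Slc16a3 was 11.8-fold lower (8.66 to 16.4), Pfkm 9.8-fold lower (7.92 to 12.3), Pfkp 3.52-fold lower (3.25 to 3.82) and Pkm 3.25-fold lower (3.06 to 3.44). Tpi1 was 2.34-fold lower and Pdk2 2.33-fold lower. In old mOPr 1 cell held 87.4% of the Pdk2 counts. Without the highest cell of each group the levels in old and young mOPr were 0.247 and 55.1 CPM for Pfkm, 1.51 and 33.8 for Slc16a3 and 2.34 and 30.8 for Pdk2, so the sizes of these folds rest on single cells. The 14 old mOPr in the MSC-L-like clusters M1 and M2 held 1404 CPM of Epas1, 146 of Slc2a3, 76.1 of Pkm, 7.45 of Hk2 and 0.304 of Slc2a1. The other 12 held 559, 54, 163, 178 and 147 CPM. Outside M1 and M2, the summed Epas1 and Slc2a3 still lay above their levels in young mOPr (152 and 3.36 CPM), and Pkm still below (380.4 CPM). Only 3 of those 12 cells had a count of Slc2a3 and only 2 reached 10 CPM. For Epas1, 3 of the 12 cells held 1201, 1472 and 2277 CPM, and the 2 middle cells held 2.66 and 19.4 CPM. The 2 middle cells of young mOPr held 24.5 and 36.1 CPM of Epas1. Slc16a3 was at 4.11 CPM inside and 2.88 CPM outside those clusters. Hk2 and Slc2a1 were higher outside them than in young mOPr, which held 57.8 and 22.7 CPM. These levels rested on few cells, because 2 old mOPr held 78.8% of the Hk2 counts and 2 held 58.8% of the Slc2a1 counts. The 2 cells highest in Hk2 held 803 and 829 CPM and lay in M5. Of 29 members, 6 were at least 2-fold higher in old mOPr (all genes 24.7%) and 6 lower (all genes 19.8%). The median log2 ratio was -0.13 beside 0.11 for all genes, a baseline that median-of-ratios scaling moves by 0.12. In range 2 alone, 19 members were past 2-fold, with a median log2 ratio of -0.92.

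In OPr the largest difference with age, Slc16a3, lay in the blood-like cells. Over all cells it was 14.5-fold higher (13.6 to 15.4) in old OPr, at 519 against 35.8 CPM. The 8 cells with hematopoietic markers held 2003 CPM and the other 21 old OPr held 22.3 CPM, below the 35.8 CPM of all young OPr. That young level rested on few cells, because 2 cells held 81.2% of its counts. Without the highest cell young OPr stood at 15.8 CPM. Those 8 cells also held 854 CPM of Hif1a, 532 of Pkm and 257 of Slc2a1, against 179.6, 128 and 22.6 CPM in the other old OPr, and 1.87 CPM of Epas1 against 827. Hk3, a hexokinase known from white blood cells, was at 815 CPM in them and 0.624 CPM in the rest.

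Without the blood-like cells, old OPr were lower than young OPr in Slc2a1, both hexokinases and pyruvate kinase. Slc2a1 was 5.24-fold lower (4.7 to 5.85), Hk2 4.16-fold lower (3.8 to 4.56), Pkm 3.83-fold lower (3.66 to 4.02) and Hk1 2.59-fold lower (2.39 to 2.81). The other carrier, Slc2a3, went the opposite way at 74 against 25.7 CPM, without the same direction in both ranges. Pdk1 was 3.39-fold, Bnip3 3.34-fold, Pgk1 2.24-fold and Pfkp 2.07-fold lower. Epas1 was 2.9-fold higher (2.82 to 2.98), Pdk2 4.5-fold higher (3.96 to 5.11), Pfkm 2.5-fold higher and Arnt 2.38-fold higher. The Pfkm direction rested on few cells. With blood-like cells included, the 2 top cells of old OPr carried 87.7% of the Pfkm counts and, for Pdk2, 71.4%. Leaving out the 2 top cells of each age, a choice made after seeing the data, brought Pfkm to 6.34 CPM in old OPr. Young OPr then had more, 9.34 CPM. Pdk2 kept its direction, with 12.4 CPM (old) against 5.47 CPM (young). With all cells, Hk2 was 4.31-fold lower, Pdk1 4.4-fold lower, Slc16a1 2.42-fold lower, Hk1 2.26-fold lower, Pkm 2.14-fold lower and Pfkfb3 2.09-fold lower. In old OPr 2 cells held 88.3% of the Slc16a1 counts. Its log2 ratio was 0.23 without the blood-like cells and cells of M1 and M2. Without the highest cell of each group, old and young OPr held 16.4 and 119 CPM of Hk2. They held 2.06 and 17.5 CPM of Pdk1, and 6.67 and 26.3 CPM of Slc16a1. Over all cells, Pdk2, Epas1 and Egln1 were 3.37-fold, 2.17-fold and 2.18-fold higher, but without the highest cells the log2 ratios of Epas1 and Egln1 were 0.99 and 0.70. The remaining mixture also matters, because 15 young OPr and 1 old OPr lay in cluster M3 and 10 old OPr lay in M1 and M2. Those 10 held 917 CPM of Epas1, 28.9 of Pkm and 10.5 of Hk2, and the 11 other old OPr without hematopoietic markers held 693, 277 and 68.6 CPM. By cluster identity (M3 to M5, all cells) 3 of the 10 stable ratios stayed past 2-fold. How much of the difference came from age within 1 kind of cell was not tested. With all cells, 5 of 31 members were at least 2-fold higher in old OPr (all genes 25.6%) and 7 lower (all genes 19.6%), with a median log2 ratio of -0.13 beside 0.14 for all genes. Without the 8 cells, 5 were higher (all genes 26.4%) and 9 lower (all genes 18.4%), with a median of -0.63 beside 0.22. Median-of-ratios scaling moved the baseline over all cells by 0.16.

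AEC kept their Epas1 with age, at 3458 CPM in young and 4149.7 CPM in old AEC. Pfkfb3 was at 319 and 222 CPM, and without the highest cell of each group at 284 and 126 CPM. Its log2 ratio went from -0.52 to -1.17, so much of the level in old AEC rested on 1 cell. Past 2-fold and stable were Pdk4, 4.27-fold higher (3.7 to 4.93) in old AEC at 29.1 against 6.83 CPM (12.1 against 4.7 CPM without the highest cells), and Pfkl, 2.26-fold higher (2.17 to 2.35) at 219 against 97.2 CPM. For Pdk4, 2 old AEC held 84.1% of the counts. Without the 2 highest cells of each group, an alternative chosen after seeing the data, Pdk4 was at 4.81 CPM in old against 3.2 CPM in young AEC. Slc2a3 was 2.63-fold lower (2.24 to 3.1), with 73.1% of the old counts in 1 cell. Of 31 members, 4 were at least 2-fold higher in old AEC (all genes 9.33%) and 2 lower (all genes 11.7%), and Pfkm, Egln3 and Eno2 among them did not have the same direction in all 3 ranges. The members past 2-fold were 10 in range 1 alone, 12 in range 3 alone and 2 by cluster identity. By cluster identity 1 of the 3 stable ratios stayed past 2-fold. The median log2 ratio was 0.11 for members and -0.03 for all genes.

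Of 29 members, 24 had a log2 ratio above 0 in old over young SEC. The median over all genes was also above 0, at 0.05, but the share of all genes above 0 is not given. Among all genes past 2-fold, 63.4% were higher in old SEC, and 59.8% after median-of-ratios scaling. Those shares are another measure than the count of 24. Slc2a3 was 18.5-fold higher (14.9 to 23.3), at 73.6 against 3.97 CPM. This ratio rested on few cells, because 2 cells held 94% of the old and 2 held 83.9% of the young counts. The 1 old SEC with hematopoietic markers held 1692 CPM, and 1 old SEC of cluster E5 held 3808 CPM. Without the 2 cells of most counts, an alternative chosen after seeing the data, old SEC stood at 4.58 CPM, near the 3.97 CPM of all young SEC, and young SEC without theirs at 0.659 CPM. The cells also differed in kind, since 8 old and 0 young SEC lay in the AEC clusters E3 and E4, and AEC markers summed to 559.7 CPM in young and 2196 CPM in old SEC. In cluster E7, to which most SEC belong, Slc2a3 was at 0.555 CPM in young and 2.55 CPM in old SEC. Bnip3 was 2.58-fold higher (2.06 to 3.25) and Pfkm 2.24-fold higher (1.86 to 2.7), and Pdk2 was 2.47-fold lower (2.23 to 2.73). At least 2-fold higher in old SEC were 3 members (all genes 13.1%), and 1 was lower (all genes 7.56%). The median log2 ratio was 0.27 for members and 0.05 for all genes. All SEC lay in library-number range 3, so these differences could not be repeated in another range.

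The published clusters show where members peaked within a population. All genes were open to the clustering, so these levels are a description. In the endothelium, Epas1 ran from 4979 CPM in E3 and 3457 CPM in E4, the clusters of AEC, to 1224 CPM in E7. Pdk1 was at 81.7 CPM in E7 and 29.4 CPM in E3. Pfkfb3 peaked at 485 CPM in the 8 cells of E2, which also held 1060.4 CPM of Aldoa and 460.2 CPM of Tpi1, both the highest among clusters with at least 5 cells. Among mesenchymal clusters, the 17 cells of M15 held 629.7 CPM of Pkm, 148 of Slc16a3 and 39.2 of Egln3, and all 17 were young. The Egln3 level rested on few cells, since in young MSC-S 2 cells held 98.1% of the Egln3 counts. The 86 cells of M1 held 55.1 CPM of Pkm and 1449 CPM of Epas1. Ldha was highest in M3, at 826 CPM, where Hk2 was 299.7 CPM, and Hk2 was highest in M9, at 414 CPM. M10, M11 and M13 had 1 cell each and M14 had 4, too few for a level.

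Correlation between members from cell to cell was weak within each population. Over 300 pairs of the more abundant members in each of the 6 populations, Spearman's rho had medians from 0.01 to 0.15. The highest was 0.55, between Slc2a1 and Pkm over the 73 OPr of both ages, which share library ranges and differ in depth and in kind. With counts this sparse, weak correlations carry little information.

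Beyond the 32 members, 83 genes of the same pathways were followed in 6 lists, and young MSC-L held less of hypoxia-induced genes than young MSC-S. Of 23 other hypoxia-induced genes, 20 entered the comparison of young MSC-L with young MSC-S, where 1 was at least 2-fold higher and 11 lower, with a median log2 ratio of -1.24. Pygl, the liver-type glycogen phosphorylase, was at 0.965 CPM in young MSC-L and 71.9 CPM in young MSC-S, and Slc16a7, the carrier MCT2, at 22.5 and 1.48 CPM. The counts at least 2-fold higher and lower in young MSC-L were 3 and 0 of 10 other glycolysis isozymes and regulators, 1 and 0 of 10 genes of pyruvate entry into mitochondria and 3 and 0 of 7 pentose phosphate genes. They were 6 and 4 of 10 genes of gluconeogenesis and glycogen and 2 and 0 of 7 other HIF components. Of all genes, 28.8% were higher and 16.8% lower in that comparison.

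In young OPr against young MSC-S, the hypoxia-induced carbonic anhydrase Car12 was at 139.8 against 0.752 CPM, and the secreted factor Stc2 was 34.2 against 0 CPM. Vhl, which carries hydroxylated HIF to degradation, was at 5.69 against 37.2 CPM. Counts higher and lower by at least 2-fold in young OPr were 8 and 3 of 23 other hypoxia-induced genes, 6 and 0 of 11 glycolysis isozymes and regulators, 1 and 2 of 10 genes of pyruvate entry, 0 and 1 of 7 pentose phosphate genes, 1 and 2 of 11 genes of gluconeogenesis and glycogen and 0 and 2 of 6 HIF components, beside 19.3% and 17% of all genes. Young mOPr had 0.137 CPM of Car12, 19.1 against 0.205 CPM of Tigar, a phosphatase that diverts sugar from glycolysis, and 0.548 against 11.5 CPM of Pfkfb1 in young OPr. The median log2 ratios of young mOPr over young OPr were -0.14 for hypoxia-induced genes, -0.67 for glycolysis isozymes and regulators, -0.01 for pyruvate entry, 0.51 for the pentose phosphate pathway, -0.33 for gluconeogenesis and glycogen and 0.92 for HIF components. Car12 and Stc2 are guide genes of the mesenchymal clusters.

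In young AEC against young MSC-S, Ddit4, a hypoxia-induced inhibitor of mTOR, was at 84.1 against 6.48 CPM, Loxl2, a collagen crosslinking enzyme, at 3.24 against 148 CPM, and Pygl at 4.12 against 71.9 CPM. Of the hypoxia-induced genes 1 and 6 of 20 were at least 2-fold higher and lower, and of the glycolysis isozymes and regulators 4 and 2 of 10. The other lists gave 1 and 4 of 10 for pyruvate entry, 1 and 2 of 8 for the pentose phosphate pathway, 1 and 3 of 10 for gluconeogenesis and glycogen and 0 and 2 of 6 for HIF components, beside 26.8% and 17.9% of all genes. Against young SEC in range 3, young AEC held 53.2 against 2.14 CPM of Slc2a4, the insulin-responsive carrier GLUT4. There the counts were 3 and 4 of 19 hypoxia-induced genes, 4 and 5 of 10 glycolysis isozymes and regulators, 0 and 3 of 10 of pyruvate entry, 2 and 2 of 8 of the pentose phosphate pathway, 1 and 2 of 10 of gluconeogenesis and glycogen and 1 and 1 of 5 HIF components, beside 17.3% and 24.9% of all genes.

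Between ages, the named genes of these lists differed from population to population. In old MSC-L, Hif1an, which blocks HIF activity by hydroxylation, was at 85.1 against 21.7 CPM in young, the glycogen synthase Gys1 at 9.49 against 36.7 CPM and the oxidase Ero1l at 38.6 against 10.6 CPM. In old MSC-S, Pck1, an enzyme of gluconeogenesis, was at 25.6 against 0.0289 CPM, Vhl at 11.7 against 37.2 CPM and the heme oxygenase Hmox1 at 122 against 359.9 CPM. Pygl, Pgm1, which interconverts glucose phosphates, and Pfkfb1 were at 1.04, 0.32 and 22.3 CPM in old mOPr and at 84.4, 29.9 and 0.548 CPM in young mOPr. Glycogen enzymes were named in both MSC-L and mOPr, but the list of gluconeogenesis and glycogen went both ways. In MSC-L 2 of 10 were at least 2-fold higher and 1 lower (all genes 13.9% and 11.5%). In mOPr 5 of 10 were higher and 4 lower (all genes 24.7% and 19.8%). In old OPr, Car12 was at 0.561 against 139.8 CPM, Stc2 at 1.78 against 34.2 CPM and Hk3 at 205 against 0.375 CPM. In old AEC, Pcx, the pyruvate carboxylase, was at 13.9 against 1.58 CPM, and Pdp1, which reactivates pyruvate dehydrogenase, at 24.9 against 4.1 CPM. In old SEC, Bpgm was at 25.2 against 4.83 CPM, Tigar at 1.45 against 9.62 CPM and Gapdhs at 6.32 against 0.137 CPM.

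Counts of genes at least 2-fold higher and lower in old than in young cells were 2 and 3 of 19 in MSC-L, 1 and 1 of 20 in MSC-S, 5 and 8 of 22 in mOPr, 2 and 9 of 21 in OPr, 0 and 2 of 20 in AEC and 3 and 1 of 19 in SEC for the other hypoxia-induced genes. For glycolysis isozymes and regulators they were 2 and 1 of 11 in MSC-L, 3 and 1 of 9 in MSC-S, 6 and 2 of 10 in mOPr, 3 and 3 of 10 in OPr, 1 and 5 of 12 in AEC and 4 and 2 of 12 in SEC. Pentose phosphate genes, which make NADPH and ribose, had 1 and 0 of 8 in MSC-L, 0 and 0 of 7 in MSC-S, 3 and 0 of 7 in mOPr, 6 and 0 of 7 in OPr, 2 and 0 of 8 in AEC and 1 and 1 of 8 in SEC. The pentose phosphate list was thus on the higher side in old OPr, where its median log2 ratio was 1.77 with all cells and 1.43 without the blood-like cells, beside 0.14 and 0.22 for all genes. Genes of gluconeogenesis and glycogen had 2 and 1 of 10 in MSC-L, 2 and 1 of 11 in MSC-S, 5 and 4 of 10 in mOPr, 4 and 3 of 11 in OPr, 1 and 1 of 10 in AEC and 2 and 0 of 10 in SEC. Those of pyruvate entry had 1 and 3 of 10 in MSC-L, 1 and 0 of 10 in MSC-S, 1 and 0 of 10 in mOPr, 1 and 2 of 10 in OPr, 2 and 0 of 10 in AEC and 2 and 1 of 10 in SEC. Other HIF components had 1 and 1 of 7 in MSC-L, 0 and 2 of 6 in MSC-S, 2 and 1 of 6 in mOPr, 3 and 0 of 6 in OPr, 1 and 0 of 6 in AEC and 2 and 0 of 5 in SEC. Of all genes, 13.9% and 11.5% in MSC-L, 8.65% and 11.1% in MSC-S, 24.7% and 19.8% in mOPr, 25.6% and 19.6% in OPr, 9.33% and 11.7% in AEC and 13.1% and 7.56% in SEC were at least 2-fold higher and lower. Without the blood-like cells, OPr had 0 and 8 of 21 hypoxia-induced genes and 2 and 1 of 9 glycolysis isozymes and regulators. Pentose phosphate genes then had 5 and 0 of 7, and gluconeogenesis and glycogen 4 and 2 of 11. Pyruvate entry had 2 and 1 of 10 and HIF components 3 and 0 of 6, beside 26.4% and 18.4% of all genes.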

How the data were processed

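Counts per gene and cell were deposited by the authors, who aligned reads with GSNAP (version 2015-09-29) to GRCm38.p4 and counted them with HTSeq on Ensembl 81 genes without regard to strand; all columns were mapped to labels. From these counts, 270 rows that repeat a symbol were summed and 37 mitochondrial genes left out, and nuclear counts of the cells of a group were summed and scaled to their total. Tables were handled in Python 3.11.15 with pandas 2.3.3 and numpy 2.4.6, intervals came from scipy 1.17.1, and plots from matplotlib 3.10.9. Levels have exact Poisson, ratios exact conditional binomial and shares Clopper-Pearson intervals, all at 95%. Medians over the members have 95% intervals from binomial order statistics over the genes.

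A gene entered a comparison with at least 100 counts over both groups in at least 5 cells. Medians and counts used log2 ratios with 1 CPM added, and a count of 0 was set to a floor of 3 counts for bounds. Genes were named when past 2-fold, in the same direction in every range and without the highest cells, and in the pathway lists the 3 largest of these. Members and lists were chosen with earlier results of these data known. Only the names of the published guide genes were used. The calculation was tested on simulated data. Alternatives were mean CPM per cell, median-of-ratios scaling, thinning to 100000 counts, a pseudocount of 0.1 CPM, no filter, single ranges, leaving out marker-positive or highest cells, and cluster-based identity groups.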

Additional observations from a re-analysis of the deposited data

How the results depend on the processing

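Of 1205 alternative values of the 155 named ratios of members, 3 reversed. Values from single ranges and without the highest cells could not reverse, because a ratio was named only if it kept its direction there. Those under median-of-ratios scaling could not either, because it moved baselines by at most 0.39 in log2, short of 2-fold. A smaller pseudocount cannot change a direction. Slc16a3 in old over young OPr had a log2 ratio of -0.66 without hematopoietic-marker cells, and in old OPr over old MSC-S -1.07 without them. The first of these rested on few young cells, because 2 cells held 81.2% of the Slc16a3 counts in young OPr. Slc16a1 in old over young OPr had a log2 ratio of 0.23 without hematopoietic-marker cells and cells of M1 and M2, an alternative chosen after seeing the data. Many calls fell under 2-fold without reversing. Past 2-fold remained 103 of 128 in range 1, 105 of 128 in range 2, 142 of 155 after thinning, 64 of 74 without hematopoietic-marker cells and 46 of 50 without mesenchymal-marker endothelial cells. By cluster identity 3 of 8 remained in MSC-L, 3 of 10 in OPr, 1 of 3 in AEC and 3 of 4 in SEC. Without hematopoietic-marker cells and cells of M1 and M2, 11 of 20 remained. Without the highest cell of each group 150 of 155 remained, while 25 ratios became over 1.5 times larger and 8 over 1.5 times smaller, among them Slc2a3 in young AEC over young SEC, with a log2 ratio of 1.44 (main 2.77).

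Of 143 alternative medians of the 16 comparisons, 136 stayed inside the interval of the main median. These intervals were taken over the member genes, which were measured in the same cells and are not independent. They describe spread between genes and test no difference between groups. They were wide, and only 1 of the 16 lay off 0 (old over young SEC, 0.17 to 0.53, where the median of all genes was 0.05). Outside the interval of their main median were -0.10 for old over young MSC-S by cluster identity, -0.92 for mOPr in range 2, -0.63 for OPr without hematopoietic-marker cells, 0.32 for AEC in range 3, 0.36 for young AEC over young MSC-S in range 1, and 0.48 in range 1 and -0.70 in range 2 for old mOPr over old OPr.

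Of 99 alternative counts of members past 2-fold, 89 were within 1.5 times the main count. The others were 4 by cluster identity in MSC-L (main 9), and in MSC-S (main 2) 1 after thinning, 10 in range 1, 4 without the highest cells and 6 by cluster identity. In mOPr (main 12) range 2 gave 19, in OPr (main 12) cluster identity gave 7, and in AEC (main 6) range 1 gave 10, range 3 gave 12 and cluster identity 2. Single ranges and identity groups hold fewer or other cells by construction, and beyond that the cause was not tested.

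No paired analysis was possible because the labels name no mouse. Each age of a population was 1 sample, so differences between mice, plates and ages cannot be told apart. Library-number ranges stand in for sets of libraries, and SEC occur in range 3 alone. Depth limits the weak members: for Aldoc, Egln3, Pgam1 and Eno2, groups held few counts, often from a few cells.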
